A study of Mus musculus with 5 samples.

Results

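The wild-type lines 4D(+/+) and 4B(+/+) were compared with each other in whole lung, using 2 of the 5 arrays of the series. The arrays were chosen by their titles alone, and neither strain lacks a gene: 4D(+/+) is the wild-type counterpart of mice without PDE4D, and 4B(+/+) that of mice without PDE4B. Both lines came from a C57BL/6 × 129/Ola background and had been crossed back to C57BL/6J over 11 or more generations. All mice were female and naive, so no elastase had been given. Lungs of 5 mice per strain were frozen and powdered, and RNA of 3 of them was pooled into 1 sample, so each line is represented by 1 array of pooled animals. The other 3 arrays, the C57 parental strain and the knockouts 4B(-/-) and 4D(-/-), prepared in the same way from naive lungs, are given only to place the values of the wild-type lines. With 1 array a side there is no replicate error and no test. Every difference below is a difference between these 2 pooled samples, with a precision limited by the number of arrays.

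The targeted enzymes, PDE4B and PDE4D, are phosphodiesterases: they degrade cyclic AMP, a messenger that relaxes airway smooth muscle and restrains inflammatory cells. A wild-type line bred beside a knockout is the usual reference for it. Lung taken at dissection borders on muscle of the chest wall and diaphragm, on the cartilage-ringed airways, on fat and on the glands of the neck and upper airway, each of which makes abundant and characteristic transcripts, so lists of their genes were read beside those of lung cells.

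The 4D(+/+) array differed from the 4B(+/+) array mainly in genes of skeletal muscle, which were higher, and less strongly in genes of secretory glands, thyroid and squamous epithelium, also higher. Genes of cartilage, the chemokine gene Cxcl5 and the transcription factor gene Zbtb16 were lower. Of 11500 genes that reached an intensity of 64 on at least 1 of the 5 arrays, 103 were at least 2-fold higher in 4D(+/+), which is 0.896%, and 11 were at least 2-fold lower, which is 0.0957%. At 1.5-fold the counts were 181 higher, or 1.57%, and 40 lower, or 0.348%. Over single probe sets, the groups of oligonucleotides that each measure a transcript, 135 of 20802 were at least 2-fold higher (0.649%) and 19 lower (0.0913%). Outside these genes the arrays were close. The median log2 difference was 0.0, the SD of the log2 differences over genes was 0.22, and 91.0% of genes lay within 1.2-fold. In 11.55% of genes both arrays held exactly the same value.

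**Figure D1:**
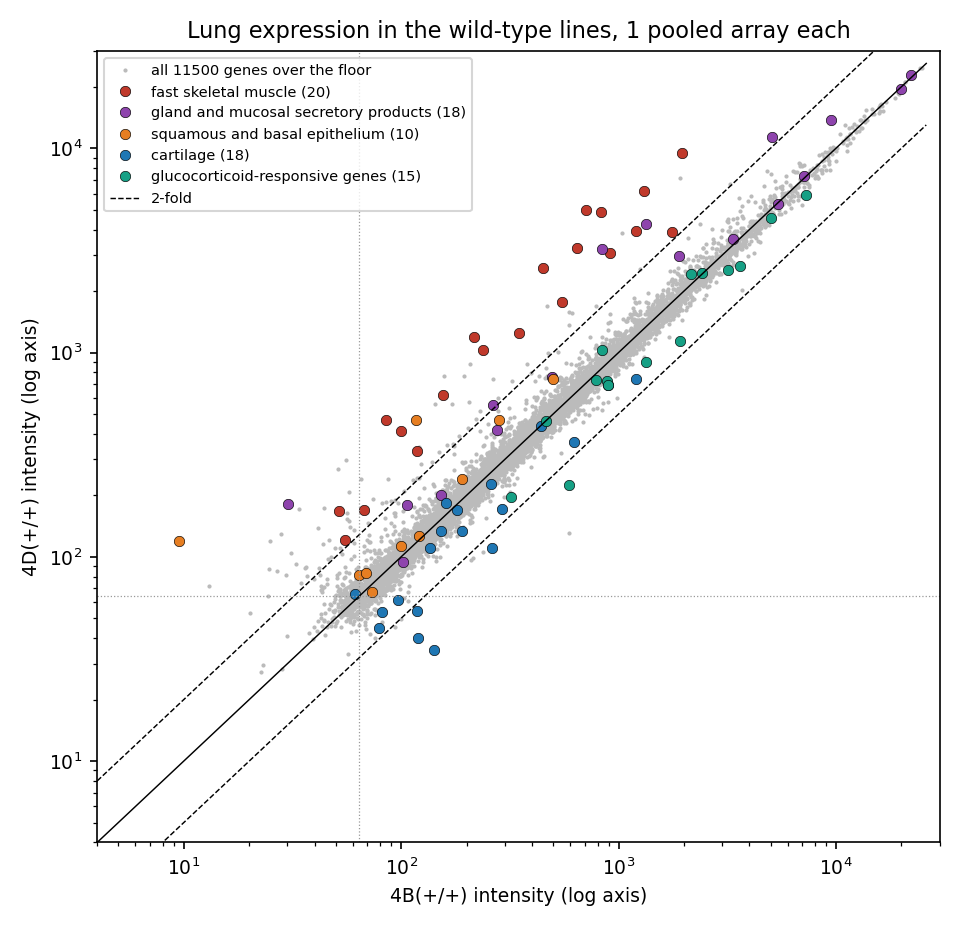
Intensity of 11500 genes in 4D(+/+) against 4B(+/+), both on log axes, with 1 point per gene. Coloured points are members of 5 gene lists, the solid line marks equal intensity, the dashed lines a 2-fold difference and the dotted lines an intensity of 64. All 20 fast skeletal muscle genes lie above the upper dashed line, and 4 of 18 cartilage genes lie below the lower one.

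Among the 103 higher genes the fold ran from 2.01 to 12.5 with a median of 2.66, and 42 genes passed 3-fold. Of these 103, 36 had an intensity below 64 in 4B(+/+), near the background of the array, so that their folds are poorly determined, and 67 were at 64 or more on both arrays. The floor was reached only through 4D(+/+) by 31 of the 103. The 11 lower genes had folds from 2.02 to 4.55 with a median of 2.26, and 5 of them were below 64 in 4D(+/+). The floor was reached only through 4B(+/+) by 1 of the 11, Cemip. For 15 of the called genes the array carries 22 further probe sets over the floor, and 21 of these differed in the same direction, 18 of them by at least 1.5-fold. The exceptions were in Pde4dip, an anchoring protein gene called at 2.25-fold, whose other probe sets gave 1.0 and 1.19, in Trdn, where 1 probe set gave 1.08, and in Myl3, where 1 gave 1.28. These 3 genes were singled out after their values were seen. A further probe set of each of 2310002L09Rik, Trdn, Hjv, Ddit4l, Rbfox1 and Pde4dip reached the floor only through 4D(+/+). That of Col11a1 reached it only through 4B(+/+). For these the floor itself required the direction. Further probe sets read the same arrays and are not replicates.

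Skeletal muscle contracts by sliding thin actin filaments past thick myosin filaments, and calcium binding to troponin on the thin filament releases the brake. Fast and slow fibres use different isoforms of nearly every part of this machinery. Of 22 fast-fibre genes listed, 20 were over the floor, and all 20 were at least 2-fold higher in 4D(+/+), with log2 differences from 1.14 to 2.82 and a median of 2.02. Of these 20, Ryr1 and Cacna1s, both calcium channel genes, reached the floor only through 4D(+/+), so the floor itself required them to be higher there. The other 18 reached it on another array as well. In whole lung, fewer cells of a type and less RNA per cell cannot be told apart. How much tissue of each kind lay in the pooled samples is not recorded in the labels, and its part in the differences was not tested.

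The upstream sequence of some of these genes is shown because myogenic transcription factors bind the letters CAGCTG, an E-box. Whether such factors had a part in the differences was not tested. The sequences are from RefSeq, build GRCm38.p6, and cover the 250 bases before the annotated start, 5′ to 3′ on the strand of the gene, with CAGCTG in capitals. Mylpf and Myl1 each hold 1 match, whose first base lies at -51 in Mylpf and at -224 in Myl1, counted from the start. Tmod4 and Tnnc2 hold none and are shown for contrast. Pvalb, with 2 annotated starts, holds none at either and is not printed.
Mylpf, chr7:127211358-127211607, plus strand: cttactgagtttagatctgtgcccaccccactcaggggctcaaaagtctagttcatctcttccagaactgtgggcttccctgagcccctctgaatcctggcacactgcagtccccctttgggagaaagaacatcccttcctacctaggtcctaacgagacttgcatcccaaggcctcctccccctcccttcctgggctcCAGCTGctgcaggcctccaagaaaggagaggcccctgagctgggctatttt
Myl1, chr1:66945057-66945306, minus strand: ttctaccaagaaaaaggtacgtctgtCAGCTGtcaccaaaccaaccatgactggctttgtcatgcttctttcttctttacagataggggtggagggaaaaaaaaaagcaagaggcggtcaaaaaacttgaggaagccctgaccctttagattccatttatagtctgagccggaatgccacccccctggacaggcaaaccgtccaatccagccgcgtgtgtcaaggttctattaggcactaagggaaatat
Tmod4, chr3:95124264-95124513, plus strand: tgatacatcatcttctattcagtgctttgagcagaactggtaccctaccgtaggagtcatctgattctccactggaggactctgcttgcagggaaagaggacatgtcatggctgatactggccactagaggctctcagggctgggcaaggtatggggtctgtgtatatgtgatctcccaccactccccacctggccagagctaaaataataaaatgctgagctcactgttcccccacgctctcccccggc
Tnnc2, chr2:164779735-164779984, minus strand: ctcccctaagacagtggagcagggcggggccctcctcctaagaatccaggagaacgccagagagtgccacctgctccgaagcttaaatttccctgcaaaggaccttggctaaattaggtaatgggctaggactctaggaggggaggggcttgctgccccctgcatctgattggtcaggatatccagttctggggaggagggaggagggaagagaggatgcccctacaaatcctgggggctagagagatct

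Matches were also counted over windows of 300 bases, 250 before the start and 50 after it. CAGCTG, which reads the same on both strands, occurred in 8 of 16 windows of the 15 fast-fibre genes for which a window was available (50%). It occurred in 10 of 16 windows of muscle genes of either fibre type (62.5%), 6 of 16 of slow-fibre genes (37.5%), 4 of 14 of cartilage genes (28.57%) and 1 of 16 of gland genes (6.25%). Among all 32851 windows of 27025 genes the share was 16.3%, and among 89 windows of 76 genes at least 2-fold higher in 4D(+/+) it was 38.2%. These 76 include muscle genes whose windows were counted above, so the last share is not a separate result. The looser pattern CANNTG, which contains CAGCTG, was in 75% of fast-fibre windows and 72.31% of all windows. TATAAA, searched on both strands, was in 25.0% of fast-fibre windows, 32.58% of windows of the higher genes and 13.62% of all windows. AACAAT, searched on both strands as a core letter pattern of SOX proteins, was in 0 of 14 cartilage windows and in 10.72% of all windows. A match is a description of the letters and not a shown binding site.

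Of the thin filament genes, Tnni2 encodes the fast inhibitory troponin. Its intensity was 384 in C57, 830.0 in 4B(+/+), 441 in 4B(-/-), 4853 in 4D(+/+) and 738 in 4D(-/-), and 4D(+/+) was 5.85-fold over 4B(+/+). Tnnt3, the fast troponin that binds tropomyosin, had 316, 646, 321, 3242 and 587 in the same order of arrays, a 5.02-fold difference. The calcium-binding fast troponin Tnnc2 had 902, 1953, 889, 9432 and 1949, or 4.83-fold. In all 3 genes the 4D(+/+) array stood alone at the top, 4B(+/+) and 4D(-/-) lay close together below it, and C57 and 4B(-/-) were lowest. Tmod4, which caps the pointed ends of the thin filaments, had 45.4, 85.4, 55.0, 467 and 65.8 in that order, or 5.47-fold.

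The myosin motor genes went the same way. Mylpf, the fast regulatory light chain, had intensities of 338 in C57, 706 in 4B(+/+), 372 in 4B(-/-), 4979 in 4D(+/+) and 678 in 4D(-/-). Its 7.05-fold difference was the largest among genes at 64 or more on both arrays. The heavy chains, the motors themselves, were singled out after their values were seen and differed less. Myh4 was at 1204 in 4B(+/+) and 3920 in 4D(+/+), 3.26-fold, Myh2 at 119 and 330.0, 2.78-fold, and Myh1 at 1765 and 3901, 2.21-fold. These heavy chain genes are close relatives, and probe sets of such families can share signal between members.

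Genes of calcium handling and of the Z-disc, which anchors the thin filaments, were also higher. Pvalb, a calcium buffer of fast fibres, had intensities of 226, 447, 144, 2580 and 371 in C57, 4B(+/+), 4B(-/-), 4D(+/+) and 4D(-/-), a 5.77-fold difference. Atp2a1, the fast calcium pump of the sarcoplasmic reticulum, was at 349 in 4B(+/+) and 1243 in 4D(+/+), or 3.56-fold. In both, 4D(+/+) was the highest array and 4B(-/-) the lowest. Myoz1, a Z-disc protein that binds calcineurin, had 122, 216, 97.1, 1190 and 198, or 5.50-fold. The Z-disc gene Myot, listed under either fibre type, had 82.8, 157, 94.4, 764 and 160, or 4.87-fold.

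Of 18 genes used by either fibre type, 14 were at least 1.5-fold higher and 0 lower, and the median of the log2 differences was 1.06. Ckm, the muscle creatine kinase that buffers ATP, was at 473 in C57, 1037 in 4B(+/+), 592 in 4B(-/-), 3855 in 4D(+/+) and 894 in 4D(-/-), a 3.72-fold difference. Acta1, skeletal actin, had 878, 1925, 1034, 7135 and 1750, or 3.71-fold. Neb, the giant protein along the thin filament, had 53.1, 57.6, 29.1, 208 and 91.8, or 3.61-fold, with 4B(+/+) below 64. The members with the smallest differences were Des at 1.15-fold, Tpm2 at 0.982 and Ckb at 0.944, which smooth muscle or other lung cells also express and which were singled out after their values were seen.

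Slow-fibre genes differed less evenly. Of 11 over the floor, 4 were at least 2-fold higher and the other 7 were within 1.5-fold, with a median log2 difference of 0.36. The 4 were Myl2, the slow regulatory light chain (20.2 in 4B(+/+) and 53.0 in 4D(+/+), both near background), Tnnt1 (74.1 and 193), Myl3, a slow and cardiac light chain (139 and 290.0), and Mb, the oxygen store myoglobin (3260 and 6694). Slow genes ordered the other arrays differently from fast genes. In 4B(-/-) the median log2 difference from 4B(+/+) was 0.54 for the slow list and -0.996 for the fast list. Myl2 was highest in 4B(-/-), at 67.7, and it was one of only 2 of the 103 higher genes whose highest array was not 4D(+/+).

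The fast genes were set beside their slow isoforms in 5 pairs. In 2 pairs the slow gene was below 64 on both arrays, so its fold cannot be ranked: Tnni1, the slow inhibitory troponin and partner of Tnni2, was at 19.96 on both, and Myl2, the partner of Mylpf, was at 20.2 and 53.0. In the other 3 pairs the fast gene had the larger fold. Tnnt3 differed 5.02-fold and Tnnt1 2.60-fold. Tnnc2 differed 4.83-fold and its slow and cardiac counterpart Tnnc1 1.09-fold, from 679.5 to 743. Atp2a1 differed 3.56-fold, and the slow and cardiac pump Atp2a2 was at 0.954 of its 4B(+/+) level, 3373 against 3536. Tnnc1 and Atp2a2 are also made by the heart muscle that sheathes the pulmonary veins in the mouse.

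**Figure D2:**
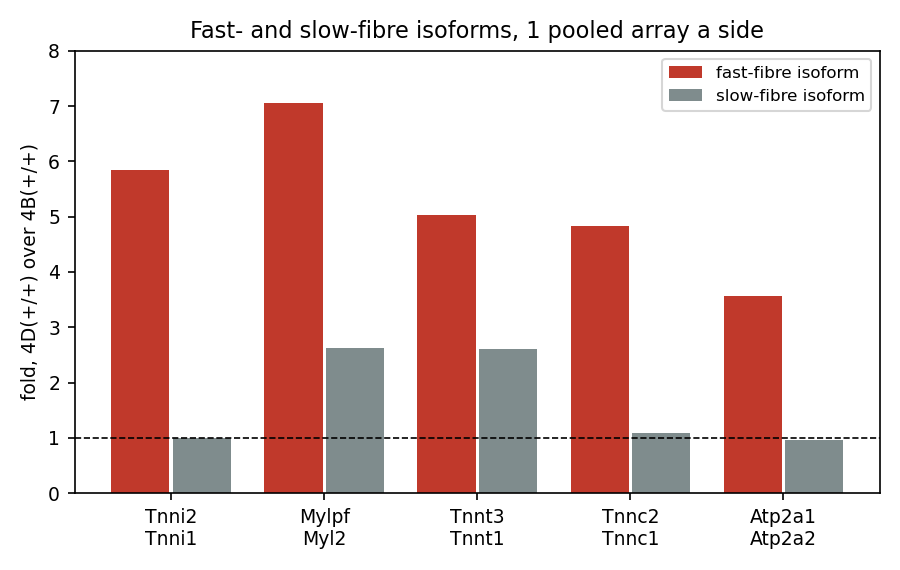
Fold of 4D(+/+) over 4B(+/+) for 5 pairs of fast-fibre and slow-fibre isoforms, as bars from 0 with the dashed line at equal intensity and 1 pooled array a side. The fast isoforms lie between 3.56 and 7.05 and the slow ones of the 3 pairs that can be ranked between 0.954 and 2.60. The bars of Tnni1 and Myl2 rest on intensities below 64 on both arrays.

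Heart muscle itself hardly differed. Of 13 genes of cardiac and pulmonary vein muscle, only Sln, a regulator of the calcium pump that skeletal muscle also uses, passed 1.5-fold, at 1.57, and the median log2 difference was 0.03. Of 18 smooth muscle genes 2 passed 1.5-fold, the tropomyosin Tpm1 at 1.79-fold and the pericyte regulator Rgs5 at 1.62-fold, both higher. The median of the smooth muscle list was -0.02. The summed intensity of the 20 fast-fibre genes was 11750 in 4B(+/+) and 49650 in 4D(+/+), while that of the 13 cardiac genes was 20350 and 21590.

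Of the 103 higher genes, 35 were in a muscle list and 53 in no list. Among the latter, 5 were among the 15 with the largest folds, of which 3 are given here and the secreted proteins Crisp3 and Serpinb2 further on. Rpl3l, a muscle form of ribosomal protein L3, had 41.8, 55.9, 27.1, 298 and 49.99 in C57, 4B(+/+), 4B(-/-), 4D(+/+) and 4D(-/-), a 5.34-fold difference. Asb5, an ankyrin repeat and SOCS box protein, had 40.1, 51.4, 30.4, 270.4 and 56.99, or 5.26-fold. The unnamed transcript 2310002L09Rik had 17.1, 33.9, 23.7, 171 and 31.6, or 5.04-fold. All 3 were above 64 in 4D(+/+) alone. Further genes without a list, singled out after their values were seen, were Myf6, a myogenic transcription factor, at 28.0 and 129, Trdn, which anchors the calcium release complex, at 208 and 882, and Klhl41, a sarcomere assembly factor, at 65.2 and 240 in 4B(+/+) and 4D(+/+).

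Energy metabolism differed in the members that muscle and brown fat use most. Of 21 genes of the mitochondrial respiratory chain, 20 had a difference above 0, as did 41.7% of all genes, but 3 passed 1.5-fold, and the median log2 difference was 0.23. Those 3 were Cox7a1, at 591 in 4B(+/+) and 1574 in 4D(+/+) (2.66-fold), Cox6a2, at 788 and 1699 (2.16-fold), and Cox8b, at 1258 and 2571 (2.04-fold), all of them cytochrome oxidase subunits of muscle or brown fat. The defining brown fat gene Ucp1, the uncoupling protein, was at 791.5 and 985.6, within 1.5-fold; it was singled out after its value was seen. Of 11 brown fat genes Cox7a1 and Cox8b were the ones past 1.5-fold, and the median was 0.14. Of 12 white or general fat genes 1 passed, the lipogenic regulator Thrsp at 1.75-fold (2082 and 3643), with a median of 0.09. Of 19 genes of fatty acid synthesis and storage 3 passed 1.5-fold upwards: Thrsp, the elongase Elovl6 at 1.64-fold and the carbohydrate sensor Mlxipl at 1.64-fold. Their levels in 4D(-/-) were 757, 265 and 57.3, against 3643, 767 and 138 in 4D(+/+).

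Secretory gland genes had a median log2 difference of 0.56. Of 18 over the floor, 9 were at least 1.5-fold higher and 0 lower. Of these 9, Prpmp5 reached the floor only through 4D(+/+), so the floor itself required it to be higher there. Prpmp5, a proline-rich salivary protein, had intensities of 58.9 in C57, 30.3 in 4B(+/+), 8.10 in 4B(-/-), 182 in 4D(+/+) and 17.2 in 4D(-/-), a 6.02-fold difference from a level near background. Tff2, a trefoil peptide of mucus, had 554, 1335, 305, 4253 and 1324 in that order, or 3.19-fold. In both genes 4D(+/+) was highest and 4B(-/-) lowest. Wfdc18, a secreted protein with a protease inhibitor domain, had 469, 837, 104, 3209 and 1659, or 3.83-fold. Dcpp3, one of a family of near-identical salivary secretory proteins whose probes may not tell members apart, had 2623, 5081, 672, 11360 and 6444, or 2.24-fold. Crisp3, a cysteine-rich secretory protein in no list, was at 25.0 in 4B(+/+) and 120 in 4D(+/+), or 4.78-fold.

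The gland list was not uniform. The airway secretory genes Bpifa1 and Bpifb1, defence proteins of the airway lining singled out after their values were seen, were at 19970 and 3351 in 4B(+/+) and at 19570 and 3579 in 4D(+/+). Lyz1, a lysozyme, was at 22080 and 22820. Of 13 genes of the club cell, the main secretory cell of the small airways, 0 passed 1.5-fold.

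Thyroid and parathyroid genes were also higher. Of 8 over the floor, 4 were at least 1.5-fold higher and 0 lower, and the median of the log2 differences was 0.63. The floor was reached only through 4D(+/+) by 1 of the 8. Dio1, which activates thyroid hormone, was at 81.4 in 4B(+/+) and 184 in 4D(+/+) (2.26-fold), and the anion transporter Slc26a7 at 222 and 473 (2.14-fold). Iyd, which recovers iodide, was at 395 and 792 (2.01-fold). Tg, thyroglobulin and the defining product of the thyroid, had 3065 in C57, 4802 in 4B(+/+), 448 in 4B(-/-), 7717 in 4D(+/+) and 1687 in 4D(-/-), a 1.61-fold difference. Thyroglobulin was thus well above background on both wild-type arrays. The summed intensity of the 8 genes was 11870 in 4B(+/+) and 18170 in 4D(+/+), against 1406 to 5774 in the other 3 arrays. Of 6 neuroendocrine and nerve genes, 2 granule proteins passed 1.5-fold, Scg5 at 2.10-fold (41.8 and 87.9) and Scg2 at 1.69-fold (93.5 and 158). Scg5 reached the floor only through 4D(+/+), so the floor itself required it to be higher there.

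Among 10 genes of squamous and basal epithelium 3 were at least 1.5-fold higher, with a median of 0.35. The floor was reached only through 4D(+/+) by 2 of the 10. Krt13, a keratin of stratified mucosa, had 7.45 in C57, 9.56 in 4B(+/+), 10.01 in 4B(-/-), 119 in 4D(+/+) and 52.1 in 4D(-/-). Its fold of 12.5 was the largest of all, but only 4D(+/+) was above 64. Its partner keratin Krt4 had 42.9, 117, 94.5, 466 and 287, or 3.98-fold, with both 4D arrays above the rest. Calml3, an epithelial calcium sensor, was at 281 and 467, or 1.66-fold. The basal cell genes Krt5 and Trp63, singled out after their values were seen, were at 1.13-fold and 0.916. Serpinb2, a plasminogen activator inhibitor in no list, was at 13.01 in 4B(+/+) and 71.7 in 4D(+/+), or 5.51-fold from background.

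**Figure D3:**
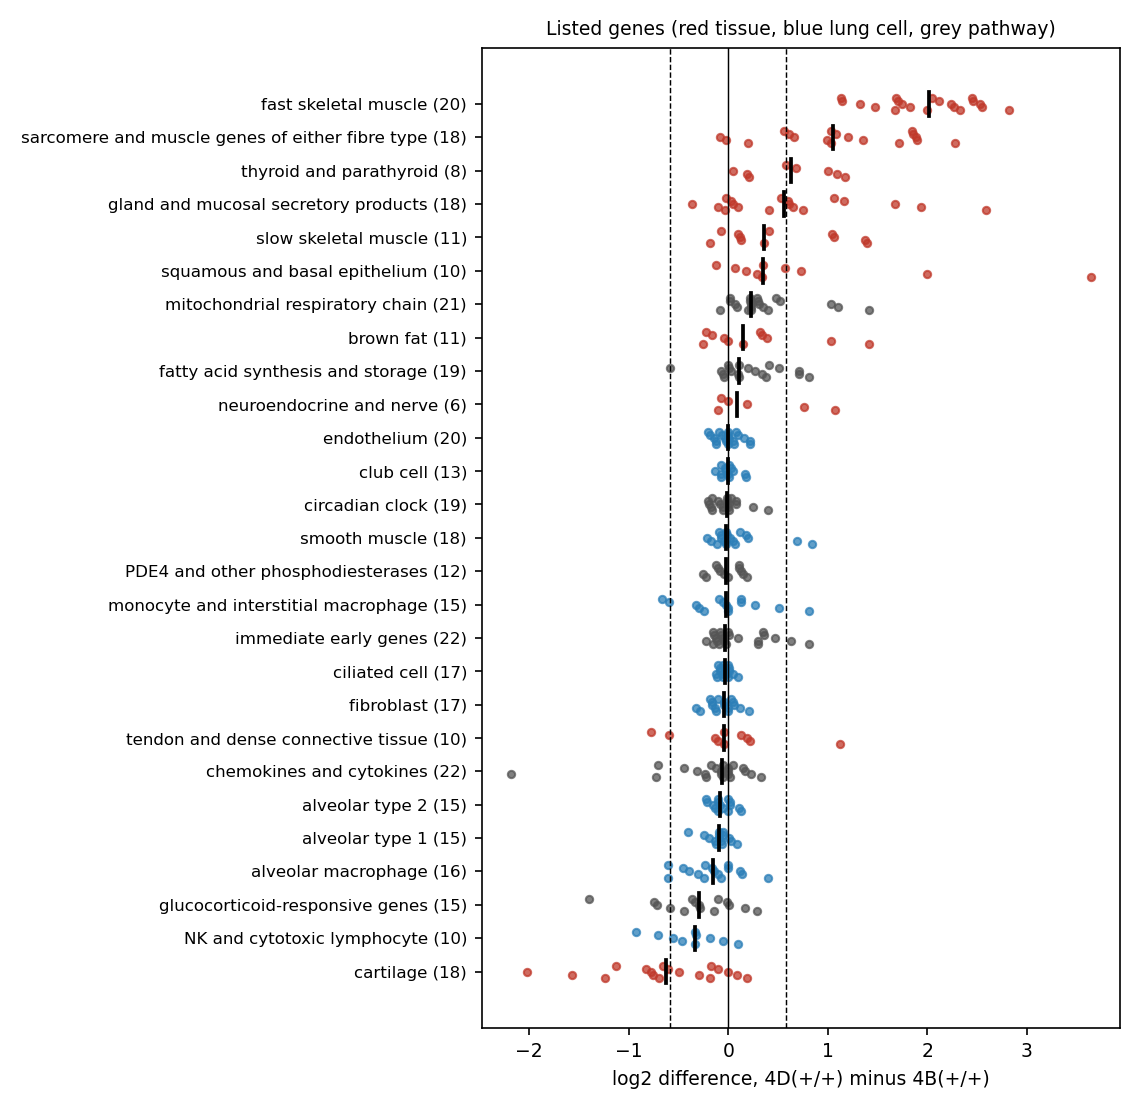
Log2 difference, 4D(+/+) minus 4B(+/+), for each member over the floor of 27 of the gene lists, with the number of members in brackets. Points are genes, black ticks are list medians, and the dashed lines mark 1.5-fold. Lists were shown where more than a single member passed 1.5-fold, with some lung cell, clock and phosphodiesterase lists added by choice. Most of the 25 lists with no member past 1.5-fold are thus left out. The fast skeletal muscle list lies wholly above the upper dashed line with a median of 2.02, the cartilage list has a median of -0.63, and the alveolar type 1 and type 2, club and ciliated cell lists lie between the lines.

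Cartilage genes were lower in 4D(+/+). Of 18 over the floor 10 were at least 1.5-fold lower and 0 higher, and their log2 differences had a median of -0.63. Of the 10, Col9a3 reached the floor only through 4B(+/+), so the floor itself required it to be lower in 4D(+/+). Without it 9 of 17 were lower. With the floor raised to log2 7, 5 of 12 were lower and the median was -0.39. Col2a1, the main collagen of cartilage, had 42.0 in C57, 142 in 4B(+/+), 78.4 in 4B(-/-), 34.99 in 4D(+/+) and 98.3 in 4D(-/-), so that it was 4.06-fold lower in 4D(+/+) than in 4B(+/+). Col9a1, which coats the collagen II fibril, had 38.9, 119, 66.2, 40.2 and 76.2, or 2.96-fold lower. Cnmd, chondromodulin, an inhibitor of vessel growth in cartilage, had 36.1, 261, 192, 111 and 138, or 2.35-fold lower. For all 3 the 4B(+/+) array was the highest of the 5. Col11a1, the collagen in the core of the fibril, had 32.4, 118, 47.4, 54.3 and 84.9, or 2.18-fold lower. Its second probe set was 1.97-fold lower but reached the floor only through 4B(+/+).

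Not every cartilage gene took part. The proteoglycan Acan was at 182 in 4B(+/+) and 169 in 4D(+/+), and the matrilin Matn1 at 152 and 134, both singled out after their values were seen. Summed over the 18 genes, the intensity was 1913 in C57, 4589 in 4B(+/+), 3444 in 4B(-/-), 3143 in 4D(+/+) and 3085 in 4D(-/-). The 4B(+/+) array thus had the highest sum and C57 the lowest, and 4D(+/+) was near both knockout arrays. Of the 10 lower genes 4 were at least 2-fold lower, and 3 of these, Col2a1, Col9a1 and Col11a1, were below 64 in 4D(+/+), near background. Of 10 tendon genes Comp, a matrix protein shared with cartilage, was 1.71-fold lower and Fmod, which binds collagen, 1.51-fold lower, whereas Tnmd, the tendon relative of chondromodulin, was 2.17-fold higher (163 and 354).

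The other lower genes were few. Cxcl5, a chemokine that attracts neutrophils, had 18.7 in C57, 593 in 4B(+/+), 194 in 4B(-/-), 130 in 4D(+/+) and 53.8 in 4D(-/-), a 4.55-fold difference and the largest among the lower genes. The 4B(+/+) array was at least 2-fold above each of the others in this gene. Of 22 chemokine and cytokine genes 3 were at least 1.5-fold lower and 0 higher, the other lower ones being Ccl20 at 1.65-fold (103 and 62.5) and Ccl5 at 1.63-fold (980 and 600.4), which attract lymphocytes. Of 9 neutrophil genes 0 passed 1.5-fold, with a median of 0.0.

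Zbtb16, a transcription factor induced by glucocorticoids, had 470 in C57, 592.5 in 4B(+/+), 1118 in 4B(-/-), 225.5 in 4D(+/+) and 619 in 4D(-/-). It was 2.63-fold lower in 4D(+/+), the lowest of the 5 arrays, and its other probe sets were 1.86-fold and 1.75-fold lower. Among 15 glucocorticoid-responsive genes 12 had a difference below 0, as did 46.7% of all genes, and 3 were at least 1.5-fold lower, with a median of -0.29. The others past 1.5-fold were the cell cycle inhibitor Cdkn1a (1918 and 1145, 1.68-fold) and the receptor chaperone Fkbp5 (321 and 196, 1.64-fold). Tsc22d3, known as GILZ, was at 3614 and 2663, or 1.36-fold, and Per1 and Sgk1 were within 1.01-fold. These 3 were singled out after their values were seen.

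**Figure D4:**
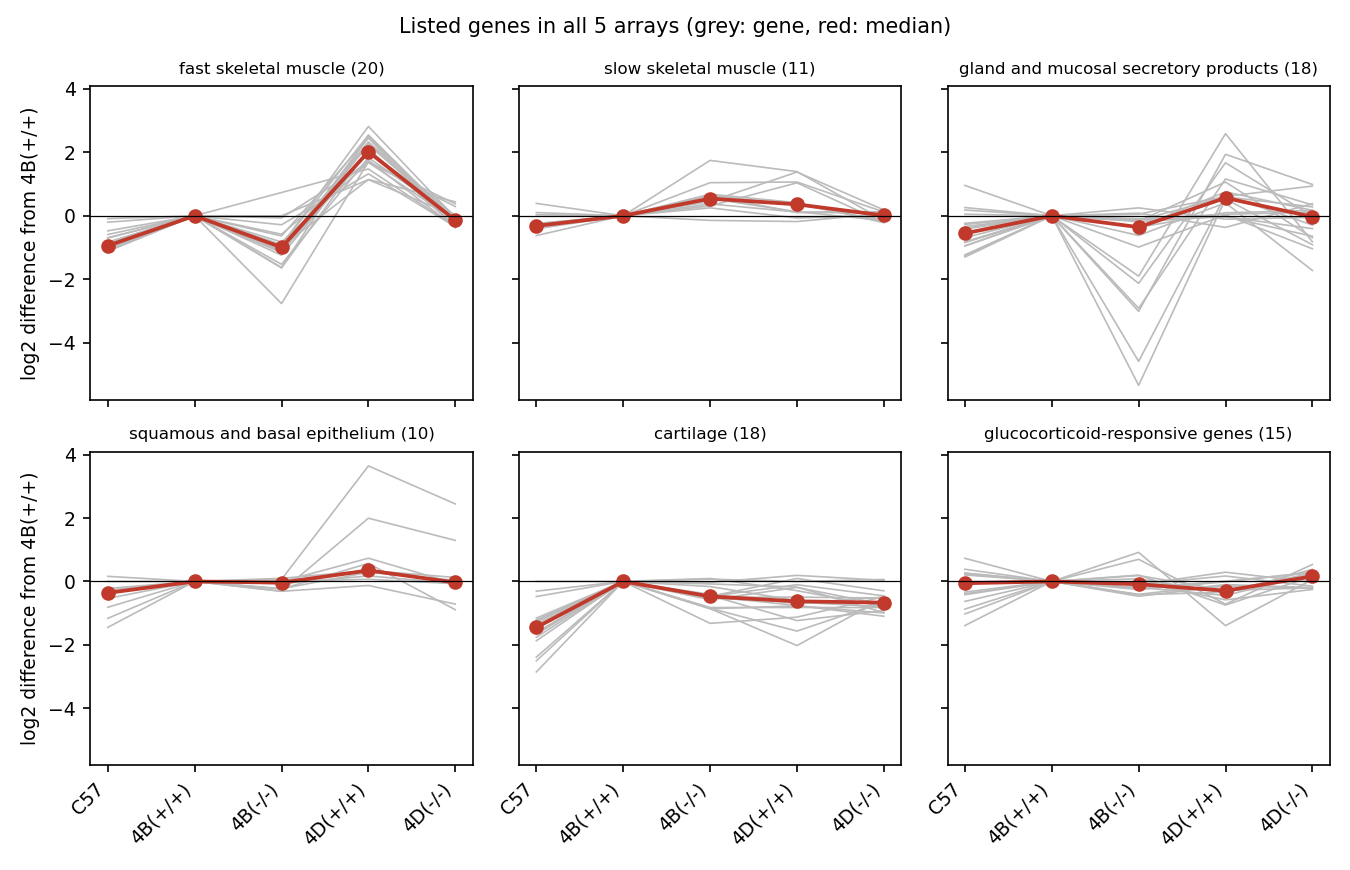
Log2 difference of each of the 5 arrays from 4B(+/+) for 6 gene lists, with grey lines for genes and red points for list medians, and the number of members in brackets. The fast skeletal muscle median is 2.02 in 4D(+/+) and -0.14 in 4D(-/-), and the cartilage median is -1.45 in C57 and -0.63 in 4D(+/+).

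The remaining lower genes past 2-fold were Wif1, a secreted Wnt inhibitor (238 in 4B(+/+) and 106 in 4D(+/+), 2.26-fold), Alas2, the first enzyme of haem synthesis in red cell precursors (209 and 96.7, 2.16-fold), and Ear3, of the eosinophil-associated ribonucleases (213 and 99.2, 2.15-fold). Ear3 is read by a probe set of a type that can share probes between related genes. Cemip, which takes part in hyaluronan breakdown, was at 93.6 and 45.4 (2.06-fold), and Otor, a secreted protein of cartilage and inner ear, at 100.2 and 49.6 (2.02-fold). Of these 5, Wif1, Cemip and Otor were highest in 4B(+/+), and Alas2 and Ear3 were highest in 4D(-/-).

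Structural cells of the lung and its blood cells were read from 20 lists of cell types. Of their 242 genes over the floor, 3 were at least 1.5-fold higher, or 1.24% against 1.57% of all genes, and 9 were lower, or 3.72% against 0.348%. All 9 lower genes were in lists of leukocytes, mast cells or red cells. Among these 9, Klrk1 and the mast cell gene Cpa3 (68.6 in 4B(+/+) and 44.2 in 4D(+/+)) reached the floor only through 4B(+/+). For both, the floor itself required the value in 4D(+/+) to be lower. List medians lay between -0.33 and 0.005. No member passed 1.5-fold in 13 of the 20 lists, among them alveolar type 1 and type 2 cells, club and ciliated cells, endothelium, fibroblasts, mesothelium and B cells. The defining lung lists were strong on both arrays: the summed intensity of 15 alveolar type 2 genes was 112000 in 4B(+/+) and 108800 in 4D(+/+), and that of 15 alveolar type 1 genes 66140 and 61000. The lowest median was that of 10 NK and cytotoxic lymphocyte genes, with 2 at least 1.5-fold lower, the receptor Klrk1 (75.8 and 39.9, 1.90-fold) and Ccl5. In that list 2 of the 10 reached the floor only through 4B(+/+), and 1 of the other 8 was at least 1.5-fold lower. Of 16 alveolar macrophage genes 2 were lower, the proton pump subunit Atp6v0d2 at 1.53-fold and the scavenger receptor Marco at 1.52-fold.

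The genes that name the lines differed by less than 1.2-fold. Pde4b was at 558 in 4B(+/+) and 467.5 in 4D(+/+), 1.19-fold lower, and its other probe sets gave 490.1 and 461, and 219 and 258.5. Pde4d was at 484 and 523, 1.08-fold higher. Of 12 phosphodiesterase genes 0 passed 1.5-fold, with a median of -0.02. Of 25 genes that make or sense cyclic AMP 1 passed, the protein kinase A inhibitor Pkia at 1.64-fold higher (457 and 749), with a median of -0.01. None of 19 clock genes, 17 heat shock chaperones, 24 elastic fibre and collagen genes or 19 interferon-stimulated genes passed 1.5-fold. Only 1.92% of all genes did, so a count of 0 in lists of this size says little. Of the 19 interferon-stimulated genes, 18 had a difference below 0 and 1 above, with a median of -0.12. Among all genes 46.7% were below 0. Of 22 immediate early genes the nuclear receptor Nr4a1 (1.75-fold, 414 and 726) and the transcription factor Egr3 (1.55-fold, 50.7 and 78.4) did, both higher.

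Genes beside each targeted gene were counted because both lines came from a mixed founder background. Whether founder-strain chromosome remains there in these wild-type lines was not tested. Of 200 genes over the floor around Pde4b on chromosome 4, 3 were at least 1.5-fold higher and 0 lower, 1.5% against 1.92% of all genes. They were 2310002L09Rik, Dio1 and the acute phase protein Orm1 (92.8 and 164, 1.77-fold). Around Pde4d on chromosome 13, with 100 genes on one side and 32 on the other, 6 of 132 were higher and 1 lower, 5.3%. The higher ones were Hspb3, a small heat shock protein of muscle (26.9 and 84.99, 3.16-fold), Cmya5, a protein of the sarcomere margin (206 and 573, 2.79-fold), the mitochondrial creatine kinase Ckmt2 (592 and 1362, 2.30-fold), the transcription factor Isl1 (1.61-fold) and, named after their values were seen, the respiratory chain subunit Ndufs4 (1.54-fold) and the muscle transcription factor Mef2c (1.51-fold). The lower one was Hapln1, a link protein of cartilage, at 1.57-fold. Among the higher neighbours, Hspb3 and Isl1 beside Pde4d and 2310002L09Rik beside Pde4b reached the floor only through 4D(+/+). The floor itself thus required these genes to be higher there. Nnt, a mitochondrial transhydrogenase gene that is known to be defective in C57BL/6J mice, had 509 in C57, 442 in 4B(+/+), 345 in 4B(-/-), 569 in 4D(+/+) and 1212 in 4D(-/-). The wild-type lines thus differed 1.29-fold in Nnt, and 1.25-fold by its other probe set, while 4D(-/-) was the high array.

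The 103 higher genes were chosen for a high value in 4D(+/+) beside 4B(+/+). The place of the other arrays in them thus follows in part from that choice. For 31 of the 103, over the floor only through 4D(+/+), the floor itself fixed the top rank. With that limit, 4D(+/+) was the highest of the 5 arrays in 101 of 103, Myl2 and the goblet cell product Clca1 being the exceptions. It was at least 2-fold above every other array in 81. The C57 array was nearer to 4B(+/+) in 101 of these genes and below both lines in 93. Its median log2 difference from 4B(+/+) was -0.50, against -0.26 for 4B(-/-) and -0.06 for 4D(-/-). In the 11 lower genes, chosen by the same arrays, the ranks were more mixed. The 4B(+/+) array was the highest of the 5 in 8, but at least 2-fold above every other in 1, while C57 was the lowest in 7 and 4D(+/+) in 4, and they were at least 2-fold below every other array in 2 and 1. C57 was nearer to 4D(+/+) in 8 of the 11.

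Median intensities lay between 45.4 and 46.6 over the 5 arrays. The 3' to 5' signal ratio, a sign of RNA quality, was 1.62 for actin and 1.37 for Gapdh in 4B(+/+), and 1.83 and 1.31 in 4D(+/+). The Gapdh 3' signal was 3981 in 4D(+/+) and 2678 to 2978 on the other 4 arrays, so 4D(+/+) stood apart in it. The B1 repeat control was at 1541 in 4B(+/+), 2044 in 4D(+/+) and 2238 in 4B(-/-), the highest array. The part of these measures in the differences above was not tested.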

How the data were processed

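Whole-lung RNA of 5 strains was measured on 1 Affymetrix array each. The authors deposited linear intensity values per probe set, made with RMA per the submitters' processing notes, which corrects background, equalises the arrays' distributions and summarises probes. For RMA, the version, the settings and the annotation build were not given in the sources used here. Equalising can hide a shift shared by most genes, and log2 differences near background are unreliable.

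Each deposited intensity was put on the log2 scale. By the platform's annotation 1 symbol was paired with 34958 of 45101 probe sets, several for 932 and none for 9211. The 18194 genes were each read by their probe set of highest average log2 value, and 11500 reached the floor of log2 6 (64) on at least 1 array. Calls used 2-fold for genes and 1.5-fold for list members and for the 100 genes on each side of Pde4b and Pde4d in RefSeq order (GRCm38.p6), which placed 11483 genes. The 52 lists held 934 symbols, 843 measured and 670 over the floor.

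Named genes were the 15 largest differences each way past 2-fold, Pde4b, Pde4d, Nnt and 5 fibre-type isoform pairs. Up to 4 genes per list and up to 5 neighbours per target were also named. These were picked by the size of their difference, in either direction, so they are not typical of their list or region. Other named genes are said to be chosen after their values were seen. The comparison, members and lists were chosen with earlier results of these data known. With 1 array a side no test was run, and depth in reads does not apply. Counting was tested on simulated data with little noise, in genes well over the floor and with planted folds away from the 2-fold cut. That checks the counting step and not the calls made here. Alternatives were other folds, floors, probe set rules, centring, cyclic loess and window size. Python 3.11.15, pandas 2.3.3, R 4.3.3 and limma 3.58.1 were used.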

Additional observations from a re-analysis of the deposited data

How the results depend on the processing

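Counts moved with the fold, as they must: 181 genes were higher and 40 lower at 1.5-fold, 42 and 2 at 3-fold, and for probe sets 276 and 77, and 55 and 4. With both arrays required to reach log2 6, 67 genes and 84 probe sets were higher, and 6 genes and 11 probe sets lower. A floor of log2 7 left 81 genes higher and 7 lower, and 15 listed genes lower in place of 25, with 5 of 12 cartilage genes lower and a cartilage median of -0.39 in place of -0.63. At 2-fold 7 listed genes were lower. With 50 neighbours on each side, 1 was higher around Pde4b, and 3 higher and 0 lower around Pde4d. Cyclic loess gave 105 higher and 11 lower genes, including all 103 and all 11, and the median of each gene's probe sets gave 101 and 10, sharing 99 and 10. No called gene changed direction with cyclic loess or with the other probe set rules. The other folds, floors and centring left each gene's difference as it was, so no gene could change direction there. Of the named genes tried, Zbtb16 no longer reached 2-fold, at a log2 difference of -0.90, with the median of its probe sets. Genes below 64 on 1 array have poorly determined folds. No paired analysis was possible because each strain has 1 array.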
